A study of Mus musculus with 4 samples.

Results

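Changes of cytosine to thymine (C>T) in coding sequence were examined in 4 mouse tumour cell lines. A change was counted as C>T when the capital letter of its deposited codon showed C replaced by T or, read on the opposite strand, G replaced by A. This gave 673 C>T changes among 2013 distinct coding changes over the 4 lists, or 619 different sites when a site listed in several lines is counted once. UV YUMM 1.1-9 contributed 283 of its 653 changes, YUMM 1.1 contributed 93 of 428, YUMM 1.3 contributed 68 of 225 and MB49 contributed 229 of 707.

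The melanoma lines YUMM 1.1 and YUMM 1.3 were derived from genetically engineered mice, and MB49 is a carcinogen-derived bladder tumour line from a male C57BL/6 mouse. UV YUMM 1.1-9 is, by its name and the heading of its table, a derivative of YUMM 1.1, and its list holds only changes additional to that line. The labels give neither an ultraviolet dose nor whether the derivative is 1 clone. Every sample carries the same text on tamoxifen-induced deletion of Atg7 in host mice and on injected MB49 cells, and names mouse tumours as its source, whereas the extraction text speaks of DNA from cell lines and does not mention YUMM 1.3. Each line was sequenced as 1 exome library with no replicate. The MB49 table was assigned to the label 49XC-49, the only one left after the other headings had been matched.

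Median read depth at the C>T sites was 45.0 for UV YUMM 1.1-9, 99.0 for YUMM 1.1, 108 for YUMM 1.3 and 57.0 for MB49. Summed over these sites, the read counts were 15467, 25554, 20317 and 26376 in the same order. With 1 library a line, each Fisher's exact test reported here compares the listed changes of these libraries and not conditions, and each interval covers counting error only. The changes of a library are not independent replicates, and reads without molecular identifiers are not independent molecules.

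C>T is the commonest base change in many tumours and is known to arise by several routes. Cytosine that is methylated, as it often is when guanine follows (CpG), deaminates to thymine. Ultraviolet light joins neighbouring pyrimidines into dimers, and cytosines within such dimers can be read as thymine during copying, typically where a pyrimidine precedes the cytosine. Nucleotide excision repair removes the dimers, and the glycosylases Tdg and Mbd4 remove thymine that is mispaired with guanine.

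The neighbouring bases are therefore the stretch of sequence the results turn on. For most sites they could be read only inside the codon. The base before the changed C was known for 182 changes of UV YUMM 1.1-9, 65 of YUMM 1.1, 41 of YUMM 1.3 and 162 of MB49. The base after it was known for 152, 55, 52 and 145 changes in the same order. At 6 sites, which lie in promoter windows of RefSeq genes (build GRCm38.p6, also called mm10), the reference gave the flanking bases as well. These are shown on the strand where the changed base is C, 5′ to 3′, with each changed C in capitals, to let the neighbours be read directly.
Dmrtc1a E3K of UV YUMM 1.1-9, chrX:102906453-102906473, plus strand: acttcctcctCcaccatccct
Fpr-rs4, synonymous, of UV YUMM 1.1-9, chr17:18021749-18021769, minus strand: ctgatccattCagaggcattg
Ccdc169 E44K and the synonymous change of the same codon in UV YUMM 1.1-9, chr3:55142277-55142290, minus strand: gCtCtgctatcttg
Mysm1, synonymous, of YUMM 1.1, chr4:94979038-94979058, plus strand: catccacatcCgcctcctccg
Gsto1 G3E of MB49, chr19:47855086-47855106, minus strand: ggaggattctCccgacatcgc

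The reference base was C at 6 of 6 sites, and the neighbours read from the codon were the same in the reference at 6 of 6. T precedes the changed C at 4 of them. The Mysm1 site is a CpG preceded by C. The Dmrtc1a site lies in a run of pyrimidines, and its 7 of 17 reads (41.2%) are the highest share of reads of any C>T change in UV YUMM 1.1-9. A synonymous change in Evi5l, where the codon also shows T before the C (gtC to gtT), had the same share, 7 of 17 reads.

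Thymine stood before the changed C more often in UV YUMM 1.1-9 and MB49 than in YUMM 1.1 and YUMM 1.3. It was found in 112 of 182 changes of UV YUMM 1.1-9, or 61.5% (exact 95% interval 54.1 to 68.6). MB49 had it in 76 of 162, or 46.9% (39.0 to 54.9). In YUMM 1.1 the share was 12 of 65, or 18.5% (9.92 to 30), and in YUMM 1.3 it was 6 of 41, or 14.6% (5.57 to 29.2). For reference, unchanged C bases in the codons of all lists were preceded by T in 26.6% of 1328 cases (24.2 to 29.0). Within each list that share was 33.1% for UV YUMM 1.1-9 (28.2 to 38.3), 23.8% for MB49 (20 to 27.9), 22.9% for YUMM 1.1 (18.5 to 27.7) and 28.1% for YUMM 1.3 (21.5 to 35.6). The intervals of changed C in UV YUMM 1.1-9 and MB49 lay above those of their own unchanged C. These unchanged C bases come from the listed codons of every class, where the neighbour can be the changed base itself. They therefore depend on each list's own changes and are not a background of all coding cytosines.

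The lists were not made alike. Only that of UV YUMM 1.1-9 carries reads of a line compared with, YUMM 1.1, and holds only changes additional to it. The other lists carry no such reads, and whether they still hold inherited variants is not known. How far this bears on any difference between lists was not tested. Of the 6 pairs of lists, 5 differed in the share with T before the C by Fisher's exact test with Benjamini-Hochberg adjustment over the pairs. UV YUMM 1.1-9 exceeded YUMM 1.1 by 43.1 percentage points (Newcombe 95% interval 29.8 to 53.2, adjusted exact p = 8.33e-09). It exceeded YUMM 1.3 by 46.9 points (31.3 to 57.2, adjusted exact p = 1.66e-07) and MB49 by 14.6 points (4.08 to 24.7, adjusted exact p = 0.00826). MB49 exceeded YUMM 1.1 by 28.5 points (15.0 to 39.2, adjusted exact p = 0.000147) and YUMM 1.3 by 32.3 points (16.6 to 43.2, adjusted exact p = 0.000211). YUMM 1.1 and YUMM 1.3 differed by 3.83 points, with an interval from -11.9 to 17.4 and adjusted exact p = 0.792. The list of UV YUMM 1.1-9 reaches lower allele fractions than the others, and with a common floor of 5 alternative reads and 10% of reads its difference from MB49 became 11.2 points (adjusted exact p = 0.115).

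The remaining bases before the changed C shifted accordingly. Adenine preceded 10 of 182 changes of UV YUMM 1.1-9, or 5.49%, against 35.4% in YUMM 1.1, 29.3% in YUMM 1.3, 15.4% in MB49 and 22.7% for unchanged C. Guanine preceded 6.59% for UV YUMM 1.1-9, 24.6% for YUMM 1.1, 26.8% for YUMM 1.3 and 17.9% for MB49. Cytosine differed less, with 26.4%, 21.5%, 29.3% and 19.8% in the same order. In UV YUMM 1.1-9, purines before the changed C were thus rarer than before unchanged C, while C was about as frequent as the 28.0% of unchanged C. No test was made of single bases other than T.

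**Figure D1:**
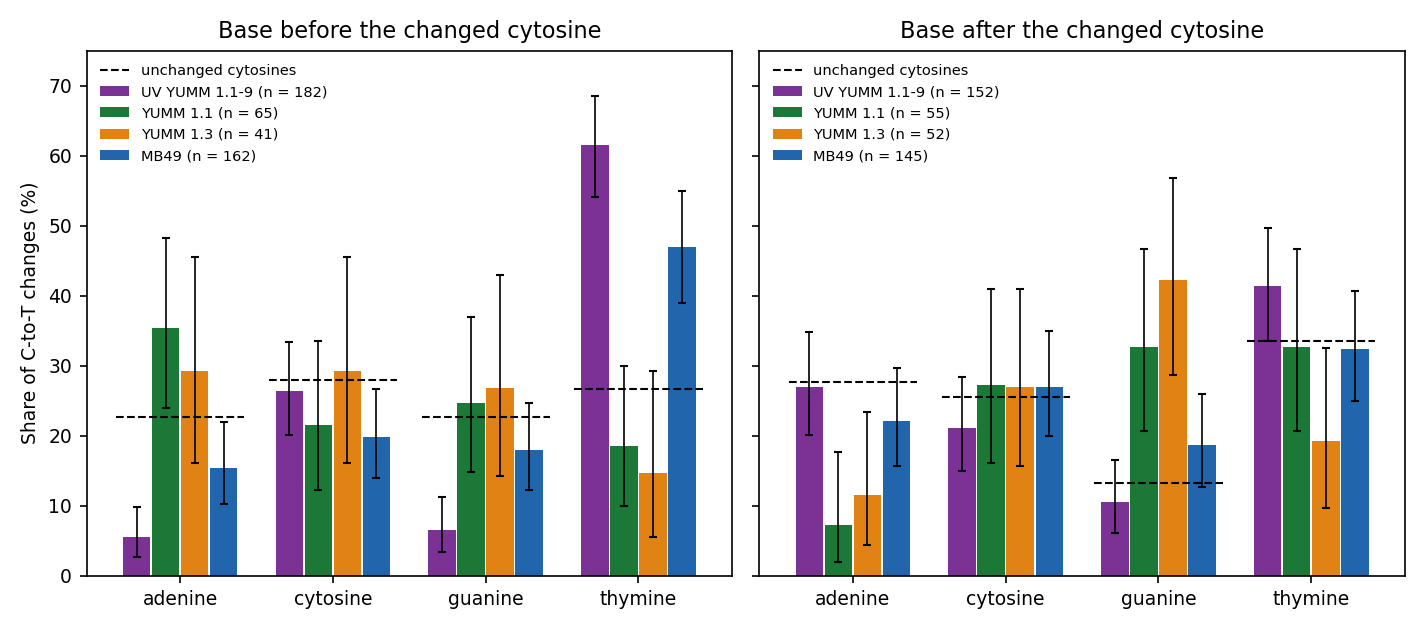
Base before (left) and after (right) the changed cytosine as a share of C-to-T changes (%), one bar per list with exact 95% intervals, and dashed lines for unchanged cytosines. Thymine before the C reaches 61.5% in UV YUMM 1.1-9 and 46.9% in MB49, and guanine after it reaches 42.3% in YUMM 1.3 and 32.7% in YUMM 1.1.

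The plot of neighbouring bases shows both sides of the changed C, and the lists fall in the opposite order on its guanine-after bars to the order on its thymine-before bars. CpG made up 22 of 52 changes of YUMM 1.3, or 42.3% (28.7 to 56.8), and 18 of 55 of YUMM 1.1, or 32.7% (20.7 to 46.7). MB49 had 27 of 145, or 18.6% (12.6 to 25.9), and UV YUMM 1.1-9 had 16 of 152, or 10.5% (6.14 to 16.5). Guanine followed 13.3% of 1207 unchanged C bases (11.4 to 15.3). Within each list, guanine followed 20.4% of unchanged C bases of YUMM 1.3 (14.2 to 27.8), 17.7% of those of YUMM 1.1 (13.3 to 22.9), 10.7% of those of MB49 (7.99 to 13.9) and 10.1% of those of UV YUMM 1.1-9 (7.15 to 13.8). The intervals of changed and unchanged C overlap in YUMM 1.1, MB49 and UV YUMM 1.1-9.

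For CpG, 3 of the 6 pairs differed after adjustment, with the same unlike making of the lists. YUMM 1.1 exceeded UV YUMM 1.1-9 by 22.2 points (9.80 to 35.9, adjusted exact p = 0.00134), and YUMM 1.3 exceeded it by 31.8 points (18 to 45.8, adjusted exact p = 1.16e-05). YUMM 1.3 also exceeded MB49 by 23.7 points (9.36 to 38.3, adjusted exact p = 0.00258). YUMM 1.1 against MB49 (14.1 points, 1.08 to 28.4, adjusted exact p = 0.0574) and MB49 against UV YUMM 1.1-9 (8.09 points, 0.0394 to 16.2, adjusted exact p = 0.0598) did not pass. Among changes in no other list UV YUMM 1.1-9 minus MB49 was -3.65 points. YUMM 1.3 and YUMM 1.1 differed by 9.58 points, with an interval from -8.54 to 26.9, and their shared sites count on both sides here too. Among changes in no other list, YUMM 1.1 minus YUMM 1.3 was -18.6 points (-41.0 to 6.56). Among changes found in no other list, UV YUMM 1.1-9 minus YUMM 1.1 was -17.1 points (adjusted exact p = 0.0615), and among changes with at least 20% of reads all of the 3 passing pairs missed the threshold (adjusted exact p from 0.355 to 0.772).

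The C>A and C>G changes of the same list served as a comparison that shares the library and its filters. T preceded, in UV YUMM 1.1-9, 61.5% of C>T against 30.3% of C>A and C>G changes, a difference of 31.2 points (17.3 to 43.1, adjusted exact p = 5.69e-05 over the 4 lists). In MB49 it preceded 46.9% against 23.0%, a difference of 23.9 points (10.8 to 35.1, adjusted exact p = 0.00106). In YUMM 1.1 and YUMM 1.3 the differences were -1.97 and -9.61 points and did not pass (adjusted exact p = 0.840 and 0.50). With the common floor the difference in UV YUMM 1.1-9 became 19.7 points (adjusted exact p = 0.114), and among changes with at least 20% of reads 62.5 points (adjusted exact p = 0.00189).

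CpG behaved the other way around within lists. In YUMM 1.1, guanine followed 32.7% of C>T against 4.59% of C>A and C>G changes, a difference of 28.1 points (15.8 to 41.6, adjusted exact p = 1.10e-05). In YUMM 1.3 the shares were 42.3% against 5.0%, a difference of 37.3 points (20.4 to 51.3, adjusted exact p = 6.58e-05). Among changes with at least 20% of reads this became 22.7 points (-1.55 to 44.6, adjusted exact p = 0.265). The differences in UV YUMM 1.1-9 and MB49 were 4.64 and 5.58 points and did not pass (adjusted exact p = 0.414 for both). The C>A and C>G shares were themselves below those of unchanged C in YUMM 1.1 (4.59% against 17.7%) and YUMM 1.3 (5.0% against 20.4%). In UV YUMM 1.1-9 the C>A and C>G share also lay below that of unchanged C, and in MB49 it lay above. The differences in YUMM 1.1 and YUMM 1.3 thus rest partly on a low share in the comparison changes. No test was made against unchanged C. Whether the within-list difference itself differs between lists was not tested.

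From the codon alone, both neighbours were known only where the changed base was the middle one of its codon, at 52 sites of UV YUMM 1.1-9, 27 of YUMM 1.1, 25 of YUMM 1.3 and 78 of MB49. In UV YUMM 1.1-9, 51 of 52 (98.1%) had a pyrimidine on at least 1 side and could thus form a dimer. The share was 85.2% in YUMM 1.1, 80.0% in YUMM 1.3 and 87.2% in MB49, so a pyrimidine on some side was common in every list. A pyrimidine on both sides was found in 65.4% of UV YUMM 1.1-9 (50.9 to 78.0), 44.9% of MB49 (33.6 to 56.6), 22.2% of YUMM 1.1 (8.62 to 42.3) and 20% of YUMM 1.3 (6.83 to 40.7). T before and a pyrimidine after occurred in 26 of 52 sites of UV YUMM 1.1-9, 25 of 78 of MB49, 3 of 27 of YUMM 1.1 and 2 of 25 of YUMM 1.3. These shares were described and not tested.

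The commonest triplets around the middle base were TCT with 14 and TCC with 12 sites in UV YUMM 1.1-9, and TCC with 13 and TCT with 12 in MB49. In YUMM 1.1 they were GCC with 5 and CCG with 4 sites, and in YUMM 1.3 CCG with 6 and GCC with 3. The lists of YUMM 1.1 and YUMM 1.3 hold 32 C>T sites in common, which count in both. No test was made of triplets. Of the CpG sites at the middle position, 5 of 6 in UV YUMM 1.1-9 also had a pyrimidine before the C, against 5 of 8 in YUMM 1.1, 7 of 11 in YUMM 1.3 and 7 of 14 in MB49.

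A pyrimidine after the changed C, whatever stood before it, was found in 62.5% of UV YUMM 1.1-9, 60% of YUMM 1.1, 46.2% of YUMM 1.3 and 59.3% of MB49. None of the 6 pairs differed by Fisher's exact test, either adjusted or at an unadjusted p under 0.05. UV YUMM 1.1-9 stood 16.3 points above YUMM 1.3 (0.832 to 31.1, adjusted exact p = 0.302). Without genes of multigene families, told by their symbols, the difference was 27.8 points (adjusted exact p = 0.0491), and YUMM 1.3 minus MB49 was -27.6 points (adjusted exact p = 0.0491).

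Within the codon, C>T changes of UV YUMM 1.1-9 fell more at the wobble base than those of MB49. The third codon position held 131 of 282 changes of UV YUMM 1.1-9, or 46.5% (40.5 to 52.5), and the middle position 52, or 18.4%. In MB49 the 3 positions held 75, 78 and 76 changes. In step with this, 132 of 283 C>T changes of UV YUMM 1.1-9 were synonymous, or 46.6% (40.7 to 52.6), against 39.8% in YUMM 1.1, 36.8% in YUMM 1.3 and 32.3% in MB49. UV YUMM 1.1-9 minus MB49 was 14.3 points for synonymous changes (5.81 to 22.5) and 13.3 points for the third position (4.72 to 21.5), a comparison chosen after the values were seen and given with no test. Against YUMM 1.1 and YUMM 1.3 the intervals of both differences held 0. Changes of the other classes were synonymous less often in each list, at 23.5%, 27.5%, 20.4% and 19.7% (UV YUMM 1.1-9, YUMM 1.1, YUMM 1.3 and MB49).

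The coding strand carried the changed C at 53.0% of the sites of UV YUMM 1.1-9, 54.8% of YUMM 1.1, 42.6% of YUMM 1.3 and 53.7% of MB49. Each of the 4 exact intervals held an even split between strands.

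The missense changes gave each list its own leading amino acid exchanges. Glutamate to lysine, which swaps an acidic for a basic side chain and arises where the C of the template strand opposite the first base of GAA or GAG is changed, led in UV YUMM 1.1-9 with 32 of 135 missense changes, or 23.7% (16.8 to 31.8). MB49 had 14 of 149, or 9.40% (5.23 to 15.3), YUMM 1.1 had 2 of 55 and YUMM 1.3 had 0 of 42. On the changed strand these codons read TTC or CTC, so the base after the changed C is outside the codon and the base before it is always T. A codon of this kind therefore counts towards the thymine share as well, and the exchange is not separate support for it. No test was made of single exchanges.

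The 32 glutamate-to-lysine changes of UV YUMM 1.1-9 lay in 31 genes, 18 in GAA and 14 in GAG codons. Their allele fractions, the share of reads with the new base, ran from 5.88% to 41.2% with a median of 14.6%. Dnah9 E507K, in an axonemal dynein heavy chain, was lowest with 4 of 68 reads, which may be exchanged with those of a partner entry of the same gene. Dmrtc1a E3K was highest. Ttn, which encodes the giant muscle protein titin, carried both E559K (3 of 44 reads) and E25435K (8 of 45 reads). Of the 28 that had a SIFT class (a prediction from sequence conservation), 13 were called deleterious, among them Arhgef2 E383K in a guanine nucleotide exchange factor (6 of 23 reads) and Mgat5 E192K in an N-glycan branching enzyme (7 of 54 reads). The 14 of MB49 had 21.2% to 73.7% of reads, median 43.8%, and the lists' ranges overlap from 21.2% to 41.2%.

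Serine to phenylalanine, in which the middle base of a TCT or TCC codon is changed, was the leading exchange of MB49 with 17 of 149 missense changes, and UV YUMM 1.1-9 had 13 of 135. YUMM 1.1 had 1 and YUMM 1.3 had 0. All 17 of MB49 have T before the C and a pyrimidine after it by the make-up of the codon. They included Kdm5a S708F in a histone H3 demethylase (11 of 33 reads), Utrn S39F in utrophin, a relative of dystrophin (45 of 81 reads), and Frk S109F in a Src-related tyrosine kinase (24 of 37 reads). The lowest share of reads was 21.1% for Abcc2 S1230F, in an organic anion exporter, and the highest was 64.9% for Frk S109F.

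Arginine was the residue lost most in YUMM 1.3, with 15 of 42 missense changes (35.7%), of which 14 were in CGN codons that contain a CpG. YUMM 1.1 lost arginine in 12 of 55 (21.8%, 10 in CGN), MB49 in 23 of 149 (15.4%, 12 in CGN) and UV YUMM 1.1-9 in 12 of 135 (8.89%, 5 in CGN). YUMM 1.3 exceeded UV YUMM 1.1-9 by 26.8 points (12.8 to 42.4, adjusted exact p = 0.000578, Fisher's exact test) and MB49 by 20.3 points (5.91 to 36.2, adjusted exact p = 0.0225). YUMM 1.1 exceeded UV YUMM 1.1-9 by 12.9 points (2.22 to 26.0, adjusted exact p = 0.0554), which did not pass. Among changes in no other list UV YUMM 1.1-9 minus YUMM 1.1 was -3.23 points (adjusted exact p = 0.657). Among changes with at least 20% of reads the passing differences were 23.5 points, adjusted exact p = 0.212, and 12.1 points, adjusted exact p = 0.291. A C>T change that removes arginine from a CGN codon is always a CpG change. Such losses therefore count towards the CpG share as well, and these differences are not separate support for it.

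Among the arginine changes of YUMM 1.3 were Mlkl R25Q, in the effector of necroptosis, with 44.8% of reads, Nprl3 R537H, in an inhibitor complex of mTORC1, with 32.1%, and Evc2 R819C, in a ciliary protein of hedgehog signalling, with 14%. Gm15433 carried 3 of the 15, R204Q, R246Q and R291W. Arginine to glutamine was the leading exchange of YUMM 1.3 with 6 of 42, and alanine to valine that of YUMM 1.1 with 8 of 55, or 14.5%. The latter included Amotl2 A638V in a scaffold of the Hippo pathway and Myh15 A1559V in a myosin heavy chain.

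Serine and proline together were lost in 25.2% of the missense changes of UV YUMM 1.1-9, 20% of YUMM 1.1, 19.0% of YUMM 1.3 and 30.9% of MB49, and none of the 6 pairs differed, adjusted or at an unadjusted p under 0.05. Serine was lost from TCN codons in 15 of 15 cases in UV YUMM 1.1-9, 20 of 27 in MB49, 3 of 5 in YUMM 1.1 and 0 of 1 in YUMM 1.3. Over all lists the missense changes made 26 kinds of exchange. SIFT gave a deleterious class to 49.2% of the classified changes of UV YUMM 1.1-9 (40.2 to 58.3), 48.0% of those of MB49 (39.1 to 57.1), 37.0% of those of YUMM 1.1 (23.2 to 52.5) and 29.7% of those of YUMM 1.3 (15.9 to 47.0). For other classes the shares were 60.6%, 58.0%, 44.6% and 50% in the same order.

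**Figure D2:**
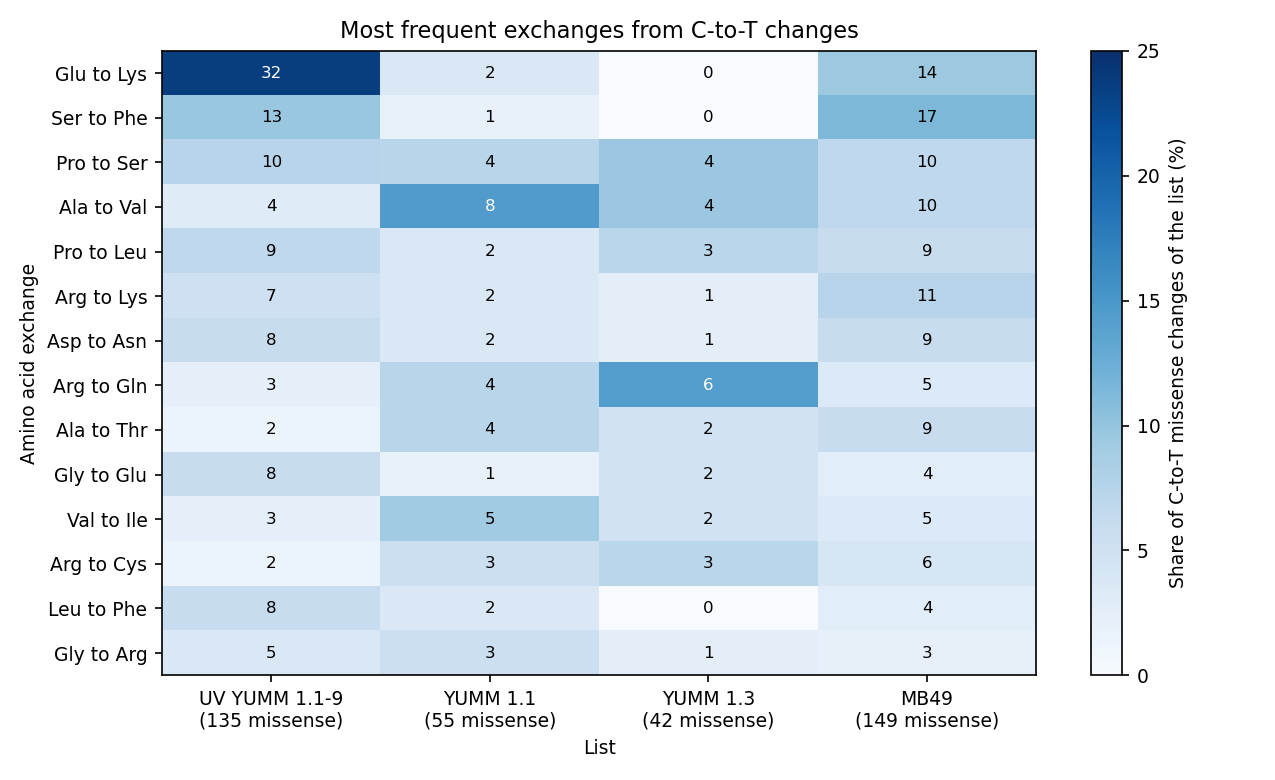
Most frequent amino acid exchanges from C-to-T changes (vertical axis) in each list (horizontal axis), with colour for the share of the list's C-to-T missense changes (%). Glutamate to lysine stands at 23.7% in UV YUMM 1.1-9 and 9.40% in MB49, and arginine to glutamine at 14.3% in YUMM 1.3.

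The plot of exchanges sets the leading exchanges side by side, with the glutamate-to-lysine cell of UV YUMM 1.1-9 the darkest.

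Stop codons can arise by C>T from glutamine (CAA, CAG) and arginine (CGA) codons, and from tryptophan (TGG) when the opposite strand is changed. UV YUMM 1.1-9 had 14 such stop gains of 37 stop gains of any class, MB49 had 5 of 22, YUMM 1.1 had 1 of 6 and YUMM 1.3 had 1 of 4. As a share of C>T changes these were 4.95%, 2.18%, 1.08% and 1.47%, and none of the 6 pairs differed, adjusted or at an unadjusted p under 0.05. The difference of UV YUMM 1.1-9 from YUMM 1.1 was 3.87 points with an interval from -1.29 to 7.18 (adjusted exact p = 0.470). Stop gains made up a larger share of the other classes in each list. That share was 6.22% in UV YUMM 1.1-9, 3.56% in MB49, 1.49% in YUMM 1.1 and 1.91% in YUMM 1.3, which was not tested.

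The residue lost in UV YUMM 1.1-9 was glutamine in 10, tryptophan in 3 and arginine in 1. The highest share of reads was that of Ntrk2 Q772* (chr13:59128201), in the neurotrophin receptor TrkB, with 5 of 14 reads or 35.7% and an exact interval of 12.8 to 64.9 at this depth. Olfr1325 R145*, in an olfactory receptor, followed with 5 of 23 reads (21.7%). The other 12 lay between 5.88% and 16.1%. Their intervals overlap widely, so no order can be read among them.

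Lama2 Q242*, in a laminin chain of the muscle basement membrane, had 5 of 34 reads. Has2 Q278*, in a hyaluronan synthase, had 5 of 53, and Gcnt3 Q402*, in a mucin-type glycosyltransferase, had 8 of 53. Chil1 W361*, in a chitinase-like secreted protein, had 3 of 20 reads, and Cntn3 W912*, in a neural adhesion protein of the contactin family, had the lowest share with 4 of 68. The third tryptophan change was Scpep1 W388*, in a serine carboxypeptidase, with 6 of 79 reads.

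The remaining stop gains of UV YUMM 1.1-9 were Csmd3 Q851* (5 of 31 reads), Zbtb44 Q305* (6 of 38), Map7d2 Q694* (3 of 21), Plcb2 Q634* in a phospholipase C (5 of 39), Olfr1388 Q260* in an olfactory receptor (7 of 92) and Atp10b Q414* in a lipid flippase (4 of 54). Each of the 14 was listed in this line only.

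All 5 stop gains of MB49 replaced glutamine. Sptbn5 Q2161*, in a beta spectrin, had 10 of 16 reads (62.5%), and U2surp Q855*, in a protein associated with the U2 small nuclear ribonucleoprotein of the spliceosome, had 29 of 63 (46.0%). Lrrtm1 Q349*, in a synaptic leucine-rich repeat protein, had 11 of 31 (35.5%), and Plekha5 Q610* had 40 of 132 (30.3%). C87414 Q268* was listed in 3 lines, with 82 of 219 reads in YUMM 1.1 (37.4%), 63 of 211 in YUMM 1.3 (29.9%) and 41 of 177 in MB49 (23.2%), and was the only C>T stop gain of YUMM 1.1 and YUMM 1.3. Its depth lay above the median C>T depth of each list (99.0, 108 and 57.0). Whether reads of near-identical copies were placed there was not tested.

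**Figure D3:**
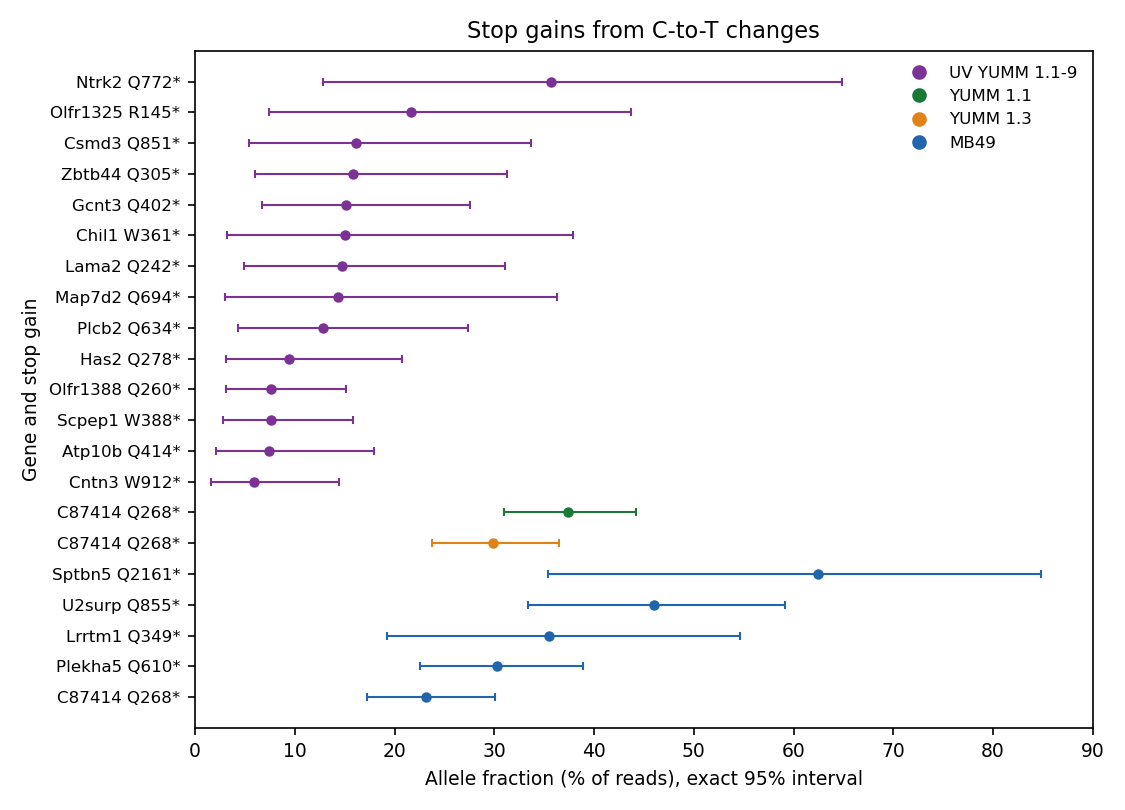
Allele fraction (% of reads) of each stop gain from a C-to-T change, with exact 95% intervals, coloured by list. The 14 of UV YUMM 1.1-9 lie between 5.88% and 35.7%, and the 5 of MB49 between 23.2% and 62.5%.

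The plot of stop gains shows that 13 of the 14 points of UV YUMM 1.1-9 lie below every point of the other lists.

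Pairs of C>T changes within 2 bases of each other were found in UV YUMM 1.1-9 (6 pairs among 283 C>T changes) and MB49 (6 pairs among 229). There were 0 in YUMM 1.1 (93 changes) and YUMM 1.3 (68 changes), which are shorter lists, and the counts were not tested. A change of any class lay within 2 bases of 25, 18, 0 and 1 C>T changes of UV YUMM 1.1-9, MB49, YUMM 1.1 and YUMM 1.3. Close pairs among changes of the other classes were not counted, so these counts do not show whether such pairs are particular to C>T. In UV YUMM 1.1-9, 3 pairs were adjacent, the form known as a CC to TT tandem, and in MB49 4 were. The files do not say whether both changes of a pair lie on the same reads. Allele fractions within a pair lay near each other, with the widest gap in Rbck1 of MB49 (46.7% and 56.7%).

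The adjacent pairs of UV YUMM 1.1-9 lay in Aplf, an end-joining repair factor, with E301K and a synonymous change at 9 of 57 reads each, and in Celf1, an RNA-binding splicing regulator, with E133K at 5 of 51 and a synonymous change at 4 of 49. The last was in Mup9, a major urinary protein, with synonymous changes at 24 and 23 of 169 reads. The pairs with 1 base between them all fell in a GAG codon of glutamate, changed at its outer bases. They were Otud4 E685K, in a deubiquitinase, with 6 of 27 and 6 of 26 reads, Mov10l1 E338K, in a helicase of the germline piRNA pathway, with 7 and 6 of 41, and Ccdc169 E44K, whose sequence is printed above, with 3 of 35 and 4 of 36. Read together, each of these codons would become AAA and still encode lysine.

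In MB49 the adjacent pairs changed residues in Rbck1, a subunit of the linear ubiquitin ligase complex, and in Bckdha, a subunit of branched-chain ketoacid dehydrogenase. The Rbck1 codon was listed as P502L (14 of 30 reads) and P502S (17 of 30), and the Bckdha codon as P361L (25 of 51) and P361S (24 of 48). Read together, either codon would become TTA, which encodes leucine. The other adjacent pairs were in olfactory receptor genes, Olfr697 with G299E at 18 of 37 and a synonymous change at 20 of 42 reads, and Olfr887 with D267N at 39 of 95 and a synonymous change at 39 of 92. Sptbn1 E41K, in a beta spectrin, had the same GAG pattern as the pairs of UV YUMM 1.1-9, with 11 of 26 and 11 of 25 reads. The last pair, with 1 base between the changes, held Pcdha11 S535N, in a protocadherin, with 51 of 126 reads and a synonymous change with 66 of 137.

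Allele fractions of the C>T changes set the lists apart more than the class did. The median was 13.2% for UV YUMM 1.1-9 (range 4.30 to 41.2), 24.7% for YUMM 1.1 (10.8 to 69.3), 18.3% for YUMM 1.3 (10.7 to 66.7) and 44.8% for MB49 (10.1 to 73.7). For the other classes the medians were 13.7%, 25%, 19.7% and 46.0% in the same order. An allele fraction above 50% was reached by 0 of 283 C>T changes of UV YUMM 1.1-9 (exact upper bound 1.30%), and by 8, 4 and 76 changes of YUMM 1.1, YUMM 1.3 and MB49. The lists differ in the lowest values they hold, since only that of UV YUMM 1.1-9 goes below 10%, so their medians are not on one footing.

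**Figure D4:**
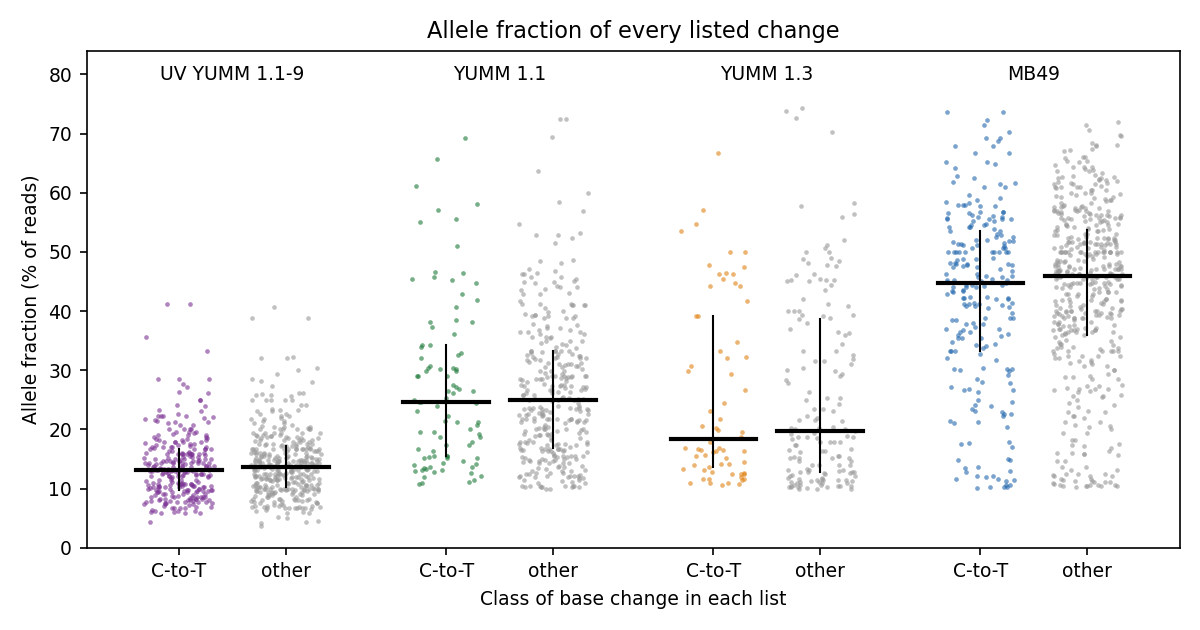
Allele fraction (% of reads) of every listed change by list, for C-to-T changes and all other changes, with thick lines for medians and thin vertical lines for interquartile ranges. The C-to-T medians of 13.2%, 24.7%, 18.3% and 44.8% lie beside the other-class medians of 13.7%, 25%, 19.7% and 46.0%.

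The plot of allele fractions shows the 4 pairs of clouds, whose ranges overlap within each list. In UV YUMM 1.1-9, 47.3% of C>T changes lay at or above their list's median allele fraction, against 52.4% of other changes. In MB49 the shares were 46.3% and 51.9%. None of the 4 lists differed by Fisher's exact test, adjusted or at an unadjusted p under 0.05 (lowest adjusted exact p = 0.414). In MB49, 25.9% of CpG changes lay at or above the median against 51.7% of other C>T changes, a difference of -25.8 points (-41.3 to -5.0), which did not pass after adjustment over the lists (adjusted exact p = 0.0748). It was -12.5 points among changes in no other list (adjusted exact p = 0.798), -14.4 without multigene families (0.619) and -16.0 among changes with at least 20% of reads (0.889). The median was 34.1% for CpG and 46.1% for other C>T changes of that list.

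The protein-changing C>T changes of highest allele fraction in UV YUMM 1.1-9 were, after Dmrtc1a E3K and the stop gain of Ntrk2, Arhgap36 G264D of a GTPase-activating protein family (8 of 28 reads), Mark1 P432S in a microtubule-affinity kinase (4 of 14 reads) and Lrp1b D1807N in a relative of the LDL receptor (16 of 59 reads). In MB49 they were Pde6c E771K, in the cone phosphodiesterase, with 126 of 171 reads, Nlrp4b S774L with 34 of 47, Erich2 A36V with 10 of 14, Vmn1r46 D265N in a vomeronasal receptor with 185 of 263, and Frem2 T2647I in an extracellular matrix protein with 9 of 13. The MB49 values lay between 69.2% and 73.7%, above the highest of UV YUMM 1.1-9.

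In YUMM 1.1 the protein-changing C>T changes were led by Amotl2 A638V with 11 of 18 reads, Zscan4c R110K with 58.1%, Muc4 V916I in a membrane mucin with 57.1%, Zfp180 V87I in a zinc finger protein with 55.0% and Gm15433 V10I with 220 of 431. In YUMM 1.3 they were led by Gm21693 A241T with 57.1%, Gaa M439I in lysosomal acid alpha-glucosidase with 27 of 54 reads, Zscan5b R172W with 47.8%, Olfr68 A186V in an olfactory receptor with 121 of 255 and 1300017J02Rik G521D with 46.4%. Reads of multigene families can be placed on a near-identical copy, which leaves the values of Gm15433, Gm21693, Muc4, Zfp180 and the receptor genes uncertain.

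The parent line's reads were deposited at each site of UV YUMM 1.1-9. At the C>T sites YUMM 1.1 had 0 reads with the new base at 271 of 283 and 1 read at the other 12, with a median depth of 52.0, at which 0 reads allow a share of up to 5.77%. Summed over the sites this was 12 of 18330 reads, or 0.0655% (0.0338 to 0.114). At sites of the other classes 56 of 370 had 1 read, or 56 of 22314 reads and 0.251% (0.19 to 0.326). The list was made of changes additional to YUMM 1.1, so low values there follow from its making, and the difference between classes was described with no test.

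C>T sites were also shared between lines. Of the 619 sites, 41 were in more than 1 list, 13 of them in YUMM 1.1, YUMM 1.3 and MB49 together. UV YUMM 1.1-9 shared 0, which for YUMM 1.1 follows from how its list was made. Symbols of multigene families made up 32 of the 41 (78.0%). Among all C>T changes they made up 19.1% for UV YUMM 1.1-9, 43.0% for YUMM 1.1, 51.5% for YUMM 1.3 and 22.7% for MB49. Over changes of all classes the family shares were 15.5%, 32.9%, 48.4% and 29.1% in the same order. Sharing was counted for C>T sites only and not for changes of all classes. These counts therefore do not show whether C>T sites are shared more or less than other changes.

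The allele fractions of the sites in 3 lists were set side by side. The range between lists had a median of 3.78 points over the 13 sites, from 1.56 to 29.2 points. Gm21190 P242L stood at 29.9%, 32.2% and 29.9% in YUMM 1.1, YUMM 1.3 and MB49, and Sfi1 T84I, in a centrosome-associated protein, at 19.6%, 19.9% and 14.9%. The depth at the Sfi1 site was 2912, 3533 and 2194 reads in that order, against median C>T depths of 99.0, 108 and 57.0. Whether reads of several copies were placed at such sites was not tested, so a shared site need not be a shared mutation. Cdh11 R137K, in a mesenchymal cadherin, stood at 24.7%, 15.5% and 24.6%. Mroh2a R1417Q was at 16.7%, 16.2% and 13.5%, Vmn1r2 G95E, in a vomeronasal receptor, at 19.5%, 20.3% and 17.9%, and Gm21693 A241T at 45.3%, 57.1% and 53.6%.

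Of the others that change the protein, Gm15433 R246Q was at 13.3%, 12.6% and 11.7%, and Gm15433 R291W at 13.7%, 16.6% and 14.8%. LOC101055758 R313Q was at 17.3%, 18.8% and 17.7%, and Speer4e R148C at 15.5%, 11.7% and 15.0%. The widest range belonged to a synonymous change of LOC105242399, at 12.8% in YUMM 1.1 and YUMM 1.3 and 42% in MB49.

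**Figure D5:**
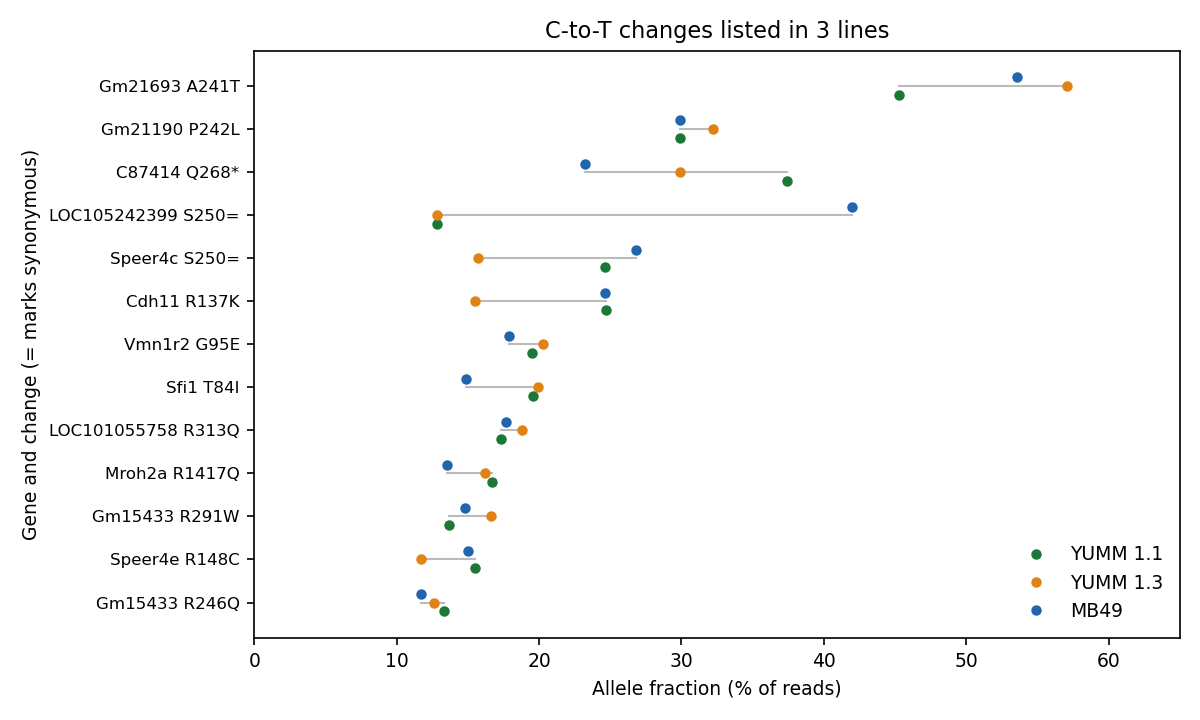
Allele fraction (% of reads) of the 13 C-to-T sites listed in 3 lines, with a point per cell line, offset vertically only for clarity, and a grey bar over the range. The points of a site lie 1.56 to 29.2 points apart, with a median of 3.78.

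The plot of shared sites shows LOC105242399 as the one site with a gap of over 20 points. CpG accounted for 7 of the 12 three-list sites whose next base was known. In MB49, 9 of 18 shared sites were CpG (50%, 26.0 to 74.0) against 18 of 127 sites found in that list alone (14.2%, 8.62 to 21.5). In YUMM 1.1 the shares were 38.5% of shared and 27.6% of private sites, and in YUMM 1.3 38.5% and 46.2%. These splits were not tested. The 22 shared C>T changes of MB49 had a median allele fraction of 20.5%, and the 207 private ones 45.7%.

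Genes with several C>T changes in a line were few. YUMM 1.1 had 6 in Itga6, the laminin-binding integrin alpha 6 chain, including E564K (30.4% of reads), R689W (29.0%), R953H (24.4%) and G453D (13.7%) besides synonymous ones. Myh6, a cardiac myosin heavy chain, had 3 in UV YUMM 1.1-9, including E850K and M934I, Mroh2a had 3 in MB49, and Gm15433 had 3 or 4 in each of YUMM 1.1, YUMM 1.3 and MB49. Changes of other classes in these genes were not counted, so the counts do not show a concentration of C>T in particular.

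Of 98 cancer genes listed for this work, 15 carried a change of any class and 5 a C>T change. Fbxw7 G348S, in the substrate-recognition subunit of a ubiquitin ligase, had 9 of 53 reads in UV YUMM 1.1-9, and Lrp1b D1807N and Ntrk2 Q772* of that line are described above. Brca2, a homologous recombination gene, had a synonymous change there with 6 of 52 reads. Rhoa C16Y, in a small GTPase, had 51 of 112 reads in YUMM 1.1 (45.5%). A list of 55 genes was drawn up for repair or bypass of dimers and deaminated cytosine, and it also holds the DNA methyltransferase gene Dnmt3a. Of these, 5 carried a change of any class and 0 a protein-changing C>T change. Dnmt3a had a synonymous C>T change with 8 of 41 reads in YUMM 1.3.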

How the data were processed

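One exome library was made from each of YUMM 1.1, YUMM 1.3, UV YUMM 1.1-9 and MB49. Per the labels' protocols, DNA was captured with a SureSelect Mouse All Exon kit and paired ends of 151 bases were read, to 80X on average as stated. Build mm10 and the tools SAMtools, Picard, GATK, BWA 0.7.5a and FastQC are listed in the submitters' processing notes without their roles. Which program called the variants, and with which filters, is not given in the sources used here. Per the file headers, the deposited tables give each coding change with its codons and the read counts of the reference and new base, which are raw and not normalized.

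Entries of the same position and new base in a table were counted once, which removed 5 of UV YUMM 1.1-9 and 1 of YUMM 1.1. The changed base pair was read from the codons and folded to its pyrimidine, and a neighbour was known only inside the codon. Allele fraction is the new base's reads over both counts. For UV YUMM 1.1-9, 32 table entries, 12 of them C>T, carry bases that belong to a partner in the same gene, so the reads of these may be exchanged too. They include Dnah9 E507K. One member has a date in place of its symbol and is unnamed. Of 558 symbols, 527 were current in RefSeq (GRCm38.p6), 22 matched a synonym and 9 did not match. Multigene families were told by symbol alone, from a fixed set that includes Olfr, Vmn, Zfp, Muc, Speer, Mup, Gm and LOC symbols. Genes outside this set, among them C87414, Sfi1, Zscan4c and Nlrp4b, count as outside families whether or not they have near-identical copies.

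Shares have exact (Clopper-Pearson) 95% intervals and differences Newcombe intervals. Two-sided Fisher's exact tests received Benjamini-Hochberg adjustment over the 6 pairs or the 4 lists, with a threshold of 0.05. They were run on simulated lists of independent changes, which does not cover sites shared between lists or changes close together. Of 6 measures compared between lists and 4 within lists, each was recomputed under 6 alternatives: a common floor of 5 alternative reads and 10% of reads, changes in no other list, no multigene families, none within 2 bases of another, at least 20% of reads, and none with exchanged columns. Named are all stop gains, the 5 protein-changing members of highest allele fraction in each list (the stop gains included), the protein-changing members in 3 lists, the tandem pairs and the protein-changing members in the 2 gene lists. Other genes given as examples were chosen after their values were seen. Members, gene lists and tests were chosen with earlier results of these data known. Python 3.11.15, pandas 2.3.3, SciPy 1.17.1 and matplotlib 3.10.9 were used. Results for 1 gene of the repair list are not reported here.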

Additional observations from a re-analysis of the deposited data

Results flagged for a closer look

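The share of C>T changes preceded by T, less that of the C>A and C>G changes of the same list, was positive in some lists and negative in others. It was 31.2 points in UV YUMM 1.1-9 (17.3 to 43.1) and 23.9 in MB49 (10.8 to 35.1). In YUMM 1.1 it was -1.97 (-14 to 11.1) and in YUMM 1.3 -9.61 (-28.1 to 8.31), and both of these intervals hold 0. The YUMM 1.1 value turned positive under 3 alternatives (2.54, 1.02 and 3.44), so the data do not establish an opposite direction. No test was made of how the lists differ in it, and each value comes from 1 library.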

How the results depend on the processing

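No paired analysis was possible because each line has 1 library and the labels carry no replicate numbers. Of 312 recomputed values, 277 kept their direction and their side of the threshold, 1 stayed on its side at a difference of exactly 0 (stop gains of YUMM 1.1 against YUMM 1.3 among changes in no other list), and of the 22 that changed sign 0 had passed. Leaving out changes within 2 bases of another, or those with exchanged columns, moved none of the 52 results across 0 or the threshold. Differences are in percentage points, first list minus second, with adjusted p from Fisher's exact test. With at least 20% of reads, UV YUMM 1.1-9 keeps 36 C>T changes, and the CpG share no longer passed for UV YUMM 1.1-9 against YUMM 1.1 (-5.90, 0.772) and YUMM 1.3 (-9.60, 0.772) and for YUMM 1.3 against MB49 (16.6, 0.355). Nor did the TpC share of UV YUMM 1.1-9 against MB49 (20.5, 0.0937), arginine losses of UV YUMM 1.1-9 against YUMM 1.3 (-23.5, 0.212) and YUMM 1.3 against MB49 (12.1, 0.291), or CpG in C>T against C>A and C>G in YUMM 1.3 (22.7, 0.265). Values that changed sign there, none past the threshold, were the CpG share of UV YUMM 1.1-9 against MB49 (7.02), the 3′ pyrimidine share of UV YUMM 1.1-9 against YUMM 1.1 (-1.39) and MB49 (-1.29), stop gains of YUMM 1.3 against MB49 (0.787), serine and proline losses of UV YUMM 1.1-9 against YUMM 1.1 (-1.53) and YUMM 1.3 (-2.48) and of YUMM 1.1 against YUMM 1.3 (-0.949), TpC in C>T against C>A and C>G in YUMM 1.1 (2.54), the allele fraction of C>T against other classes in YUMM 1.1 (1.10) and YUMM 1.3 (6.12), and of CpG against other C>T in YUMM 1.3 (3.81). With the common floor, TpC no longer passed for UV YUMM 1.1-9 against MB49 (11.2, 0.115) or against C>A and C>G within UV YUMM 1.1-9 (19.7, 0.114), and the allele fraction of C>T against other classes in UV YUMM 1.1-9 became 0.549. Among changes in no other list, the CpG share of UV YUMM 1.1-9 against YUMM 1.1 no longer passed (-17.1, 0.0615), and signs changed for the 3′ pyrimidine share of YUMM 1.1 against MB49 (-0.136), TpC within YUMM 1.1 (1.02), the allele fraction of C>T against other classes in YUMM 1.3 (4.26) and of CpG against other C>T in YUMM 1.1 (7.14) and YUMM 1.3 (16.7). Without multigene families, the 3′ pyrimidine share passed for UV YUMM 1.1-9 against YUMM 1.3 (27.8, 0.0491) and YUMM 1.3 against MB49 (-27.6, 0.0491), and signs changed for the 3′ pyrimidine share of YUMM 1.1 against MB49 (-4.24), stop gains of YUMM 1.3 against MB49 (0.205), serine and proline losses of YUMM 1.1 against YUMM 1.3 (-4.38), TpC within YUMM 1.1 (3.44) and the allele fraction of CpG against other C>T in YUMM 1.1 (1.59). Each alternative keeps fewer changes, and the cause of the shifts was not tested.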
